A study of Mus musculus with 8 samples.

Results

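The genes described here encode heat shock proteins and their partners in the cytosol and in mitochondria. They were chosen by name, as the probe sets whose platform annotation gave 1 of 10 gene symbols. Of these, Hsph1, Hspa8, Hspa9, Hspa4, Hspd1, Hspe1, Hsp90aa1 and Dnaja1 had a probe set, and no probe set was named Hsp90ab1 or Hsf1 in the annotation used. The 8 measured genes had 14 probe sets among 12422 tested, and were 8 of 8251 genes with a probe set of a single symbol. A probe set is the group of short oligonucleotides on an array that together measure 1 transcript. Hspa4 had 5 probe sets, Hspd1 and Hsp90aa1 had 2 each, and the other 5 genes had 1 each.

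Transcripts of the whole pancreas were measured in mice 3 weeks old on 8 Affymetrix arrays, 2 in each of 4 groups. BDC2.5/NOD.scid mice carry the scid mutation and a transgene for the T cell receptor of BDC2.5, a CD4 T cell clone that attacks islets. BDC2.5/NOD mice carry the transgene without the scid mutation, NOD.scid mice carry the mutation without the transgene, and NOD mice carry neither. All groups share the NOD background, an inbred strain prone to autoimmune diabetes. The scid mutation disables Prkdc, which is needed to join antigen receptor genes, so few mature T and B cells form except where a rearranged receptor is supplied. RNA was pooled from 6 animals. The labels do not say if both arrays of a group stand for different pools, so p-values cover the spread among these arrays alone, and that spread may be technical. The comparisons address what the transgene alters in the pancreas and whether that depends on the scid mutation.

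Heat shock proteins are chaperones, which bind unfolded proteins and help them fold or reach their compartment. Hsp70 proteins work in cycles with J proteins, which start the cycle, and with Hsp110 proteins, which release the spent nucleotide. Hsp90 takes over many clients from Hsp70, and in mitochondria a chaperonin chamber with a lid completes folding. Many of these genes are induced through heat shock factor 1, encoded by Hsf1, which binds inverted repeats of the letters GAA near their start sites. The exocrine pancreas secretes large amounts of protein and relies mainly on a separate set of chaperones in the endoplasmic reticulum.

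Acinar transcripts dominated every array. Ctrb1, a chymotrypsinogen, read 13.7 to 13.8, Cela1, an elastase, 13.2 to 13.4, and Cel, a lipase, 12.9 to 13.1 on the log2 scale of the deposited values. T cell markers (8 of 9 measured) and B cell markers (5 of 6 measured) passed limma's test in none of the 5 comparisons, and neither did 6 endothelial markers. At an unadjusted p under 0.05 these lists had up to 2, 1 and 3 genes in a comparison. Both arrays of a group correlated at Pearson r from 0.9912 to 0.9961 across probe sets. Some array controls did not follow the groups. The middle beta-actin control read 9.26 to 9.55 on BDC2.5/NOD.scid replicate 2, NOD.scid replicate 1 and NOD replicate 1, and 6.95 to 7.74 on the other 5 arrays, which are called low-actin arrays here. The ratio of the 3' to the 5' actin control was 3.94 to 4.90 on the former 3 arrays and 3.15 to 3.53 on the low-actin arrays. NOD replicate 1 had the highest, and its Gapdh ratio was 2.43, against 1.66 to 1.86 on the other arrays. The part of RNA quality in the values was not tested. The BDC2.5/NOD arrays stood apart in their BioB hybridization control, at 7.02 and 7.06 against 5.89 to 6.45 elsewhere. Whether they were prepared apart is not known, so such a difference cannot be told apart from that group's genotype.

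The stretches around the start sites of 3 members are shown because they hold the letters that heat shock factors are known to bind. RefSeq windows for the GRCm38.p6 build were used for 5 of the 8 measured members, 9 windows in all. Any member window on 1 chromosome was left out of this search, while the counts over all windows include that chromosome. They were searched for GAANNTTC and TTCNNGAA, where N is any base. Each of these reads the same on both strands, and matches of one can overlap matches of the other. Matches are in capitals. The Hsph1 window is at chr5:149636287-149636586 on the minus strand, the Hspd1 window at chr1:55087883-55088182 on the minus strand, and the Dnaja1 window at chr4:40722218-40722517 on the plus strand.
Hsph1: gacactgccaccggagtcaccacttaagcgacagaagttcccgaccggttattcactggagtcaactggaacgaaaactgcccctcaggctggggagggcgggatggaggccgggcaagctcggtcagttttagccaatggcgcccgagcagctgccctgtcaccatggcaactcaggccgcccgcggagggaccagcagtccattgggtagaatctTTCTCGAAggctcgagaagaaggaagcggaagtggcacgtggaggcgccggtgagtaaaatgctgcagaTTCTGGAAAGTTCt
Hspd1: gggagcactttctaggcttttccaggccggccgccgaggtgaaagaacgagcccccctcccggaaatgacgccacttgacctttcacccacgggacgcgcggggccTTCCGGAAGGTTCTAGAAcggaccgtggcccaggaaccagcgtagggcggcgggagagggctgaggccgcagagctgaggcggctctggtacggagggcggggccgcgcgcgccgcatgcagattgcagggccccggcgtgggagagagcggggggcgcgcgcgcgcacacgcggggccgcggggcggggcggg
Dnaja1: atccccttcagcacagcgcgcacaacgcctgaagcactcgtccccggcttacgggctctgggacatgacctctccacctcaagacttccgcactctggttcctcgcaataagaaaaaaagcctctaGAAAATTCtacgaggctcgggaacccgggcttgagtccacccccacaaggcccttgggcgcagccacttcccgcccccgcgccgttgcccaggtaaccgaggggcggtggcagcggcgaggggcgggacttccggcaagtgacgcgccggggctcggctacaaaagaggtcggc
The Hsph1 window held 3 matches, TTCTCGAA at position -33, with the start base as position 0, and the overlapping TTCTGGAA and GAAAGTTC at positions 36 and 41. The Hspd1 window held 3 matches in 1 run, starting at positions -144, -139 and -134. Hspe1 is read from the other strand of the same stretch. Its window, at chr1:55087898-55088197, shares 285 bases with that of Hspd1 and holds the same 3 matches. Dnaja1 had 1 match, GAAAATTC, at position -124, and the Hspa4 window had 0. A second Hspd1 window and 2 further Dnaja1 windows also had 0, while the second Hsph1 window held the same 3 matches. Over all 32851 windows in the table, 15.1% held a match of either kind, 1.96% held 2 or more and 0.256% held 3 or more. Of 273 genes that rose in BDC2.5/NOD against NOD and had a window, 14.7% held a match, against 16.4% of 299 genes that fell and 14.6% of all 6576 measured genes with a window.

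Hspa8 is the constitutive cytosolic Hsp70. Its probe set (96564_at) read 7.44 and 7.23 in BDC2.5/NOD.scid, 7.88 and 8.08 in BDC2.5/NOD, 6.88 and 6.89 in NOD.scid, and 7.07 and 7.45 in NOD. The BDC2.5/NOD arrays were the highest and the NOD.scid arrays the lowest, and of the groups only BDC2.5/NOD.scid and NOD overlapped. The gene thus read higher with the transgene on both backgrounds, and lower with scid both with and without it. The differences of BDC2.5/NOD.scid against NOD.scid (limma adjusted p = 0.0544) and of NOD.scid against NOD (limma adjusted p = 0.177) did not pass.

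Hspa9 encodes mortalin, the mitochondrial Hsp70 that pulls imported proteins through the inner membrane. It read 5.84 and 5.79 in BDC2.5/NOD.scid, 5.96 and 6.26 in BDC2.5/NOD, 5.55 and 5.16 in NOD.scid, and 6.33 and 6.31 in NOD (97914_at). No groups overlapped. Its order of groups was unlike that of Hspa8, since NOD was the highest and NOD.scid the lowest.

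Hsph1 encodes Hsp105, an Hsp110 protein that serves as nucleotide exchange factor for Hsp70. It read 4.43 and 4.24 in BDC2.5/NOD.scid, 6.17 and 6.36 in BDC2.5/NOD, 4.27 and 4.52 in NOD.scid, and 4.67 and 4.80 in NOD (98111_at). Both BDC2.5/NOD arrays lay more than 1 log2 unit above each of the other 6. BDC2.5/NOD.scid and NOD.scid overlapped, and both lay below NOD.

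Hspa4 encodes a second cytosolic Hsp110 protein. Its brightest probe set (96594_at) read 4.84 and 4.78 in BDC2.5/NOD.scid, 5.28 and 5.38 in BDC2.5/NOD, 4.84 and 5.14 in NOD.scid, and 5.27 and 5.16 in NOD. BDC2.5/NOD.scid and NOD.scid met at the low end, at 4.837 and 4.836, and BDC2.5/NOD and NOD were higher. The nearest arrays of BDC2.5/NOD and NOD, at 5.277 and 5.273, were almost equal. The difference between these groups did not pass (limma adjusted p = 0.618). The other 4 were dimmer, with means over the 8 arrays of 2.87 to 4.03 that lie below the median of all probe sets (4.27). Only 92571_at among them was called in any comparison. It read 3.16 and 3.03 in BDC2.5/NOD.scid, 3.35 and 3.20 in BDC2.5/NOD, 2.77 and 2.75 in NOD.scid, and 3.48 and 3.32 in NOD. The 5 probe sets of this gene therefore did not report the same pattern.

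Dnaja1 encodes a cytosolic J protein that stimulates Hsp70. It read 5.01 and 5.19 in BDC2.5/NOD.scid, 5.45 and 5.56 in BDC2.5/NOD, 5.32 and 5.42 in NOD.scid, and 5.29 and 5.50 in NOD (97261_at). The BDC2.5/NOD.scid arrays were the lowest, and the arrays of the other 3 groups lay between 5.29 and 5.56, with NOD overlapping both BDC2.5/NOD and NOD.scid.

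Hsp90aa1 encodes the stress-inducible cytosolic Hsp90. Its brighter probe set (95282_at) read 6.67 and 6.44 in BDC2.5/NOD.scid, 7.29 and 7.41 in BDC2.5/NOD, 7.02 and 6.62 in NOD.scid, and 7.09 and 6.98 in NOD. BDC2.5/NOD was the highest group, BDC2.5/NOD.scid overlapped NOD.scid, and NOD.scid overlapped NOD. The dim probe set 161869_i_at read 3.18 to 3.80 over all arrays and passed no test.

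Hspd1 and Hspe1 encode Hsp60 and Hsp10, the chamber and the lid of the mitochondrial chaperonin. Hspd1 read 6.56 and 6.23 in BDC2.5/NOD.scid, 6.99 and 7.08 in BDC2.5/NOD, 6.54 and 6.33 in NOD.scid, and 6.80 and 6.87 in NOD (93277_at). Its second probe set, 161140_r_at, read 5.30 to 5.61 and passed no test. Hspe1 read 6.57 and 6.36 in BDC2.5/NOD.scid, 6.89 and 7.02 in BDC2.5/NOD, 7.01 and 6.91 in NOD.scid, and 7.04 and 7.21 in NOD (92829_at). By array, Hspd1 at 93277_at was low in both scid groups, whereas Hspe1 was low only in BDC2.5/NOD.scid. This difference between the genes was not tested. For Hspd1 the difference of NOD.scid from NOD did not pass at 93277_at (limma adjusted p = 0.116), and 161140_r_at differed the other way there, by 0.11.

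**Figure D1:**
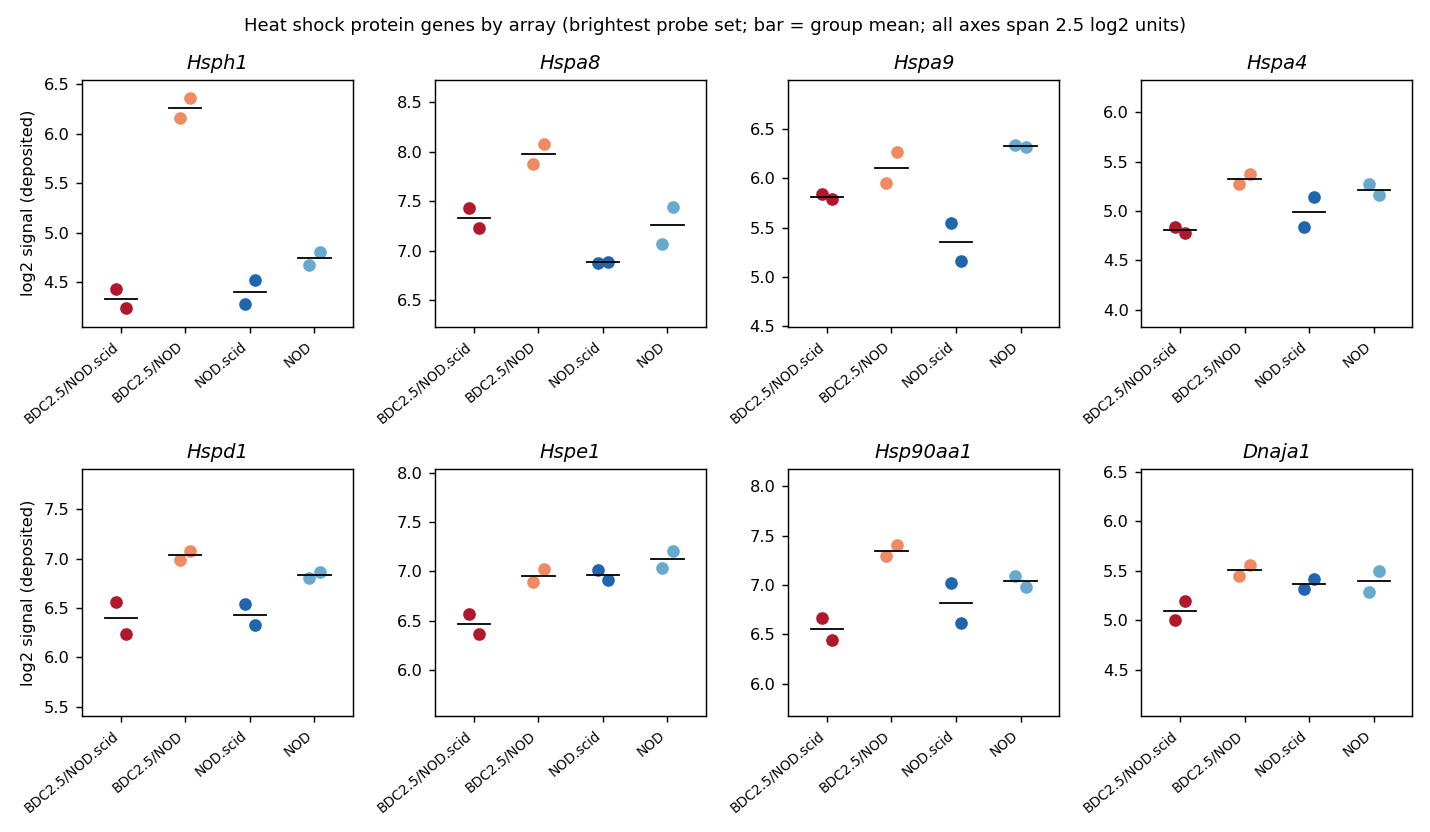
The log2 signal of the brightest probe set of each of the 8 genes (vertical axes, each spanning 2.5 log2 units) is plotted for the 2 arrays of each group, with a bar at the group mean. Hsph1 stands at 6.17 and 6.36 in BDC2.5/NOD and below 5 on the other 6 arrays, and Hspa9 is lowest in NOD.scid.

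With the transgene on the NOD background, Hsph1 and Hspa8 rose and no member fell. Hsph1 averaged 6.26 ± 0.14 in BDC2.5/NOD and 4.74 ± 0.09 in NOD (SD, n = 2 each). This difference of 1.52 on the log2 scale (SE 0.12, limma adjusted p = 9.89e-06) is 2.88-fold and ranked 17 among all probe sets by size of increase. Hspa8 averaged 7.98 ± 0.14 in BDC2.5/NOD and 7.26 ± 0.27 in NOD, a difference of 0.73 (SE 0.13, limma adjusted p = 0.00367) or 1.65-fold. Both arrays of BDC2.5/NOD lay above both of NOD for each of these genes. The share of all probe sets separated in this way was not counted.

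Among the 14 member probe sets 2 rose and 0 fell here, where 3.91% of all 12422 probe sets were higher and 4.06% lower. Counted as genes by the brightest probe set, these shares were 4.16% and 4.56% of 8251. At an unadjusted p under 0.05, 3 of the 14 passed in either direction, and the median difference was 0.11 over the members and 0.03 over all probe sets. The share of all probe sets at that unadjusted p was not counted, in this or the other comparisons. Such counts therefore do not show an excess among the members. Hsp90aa1 differed by 0.31 (95% interval 0.04 to 0.59, limma adjusted p = 0.159), Hspd1 by 0.20 (-0.06 to 0.45) and Hspe1 by -0.17 (-0.39 to 0.06). Hspa9 differed by -0.21 (-0.50 to 0.07), Hspa4 by 0.11 (-0.14 to 0.36) and Dnaja1 by 0.11 (-0.13 to 0.35), and none of these 6 passed the test. When only BDC2.5/NOD and NOD were fitted, Hsp90aa1 (95282_at) passed with a limma adjusted p of 0.0355. Without BDC2.5/NOD replicate 2 the Hspa8 difference was 0.62 and missed the threshold (limma adjusted p = 0.0719). Within the low-actin arrays, with 2 of BDC2.5/NOD and 1 of NOD and no test, Hsph1 differed by 1.46 and Hspa8 by 0.54.

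Cell type markers moved in the same comparison. All 6 measured fibroblast and stellate markers fell, with a summed linear signal of 562 and 570 in BDC2.5/NOD, against 1031 and 1065 in NOD. Of 10 islet markers 5 fell (summed signal 2081 and 2135 in BDC2.5/NOD, against 3463 and 3547 in NOD), and of 7 acinar markers 2 rose, namely Sycn and Amy1. Macrophage markers (11) had 0 limma calls (1 at an unadjusted p under 0.05), duct markers (7) had 1 higher and 1 lower, neutrophil markers (8) and erythroid markers (5) had 2 lower each, and 2 of 10 immediate early genes rose. In whole tissue, fewer cells of a type and less RNA per cell cannot be told apart, and the part of these shifts in the heat shock values was not tested.

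With the transgene present, scid went with lower readings at the brightest probe set of nearly all members, a count that changed with the arrays used. In BDC2.5/NOD.scid against BDC2.5/NOD, 7 of the 8 genes fell by that probe set, and the exception was Hspa9. Hsph1 averaged 4.33 ± 0.14 in BDC2.5/NOD.scid and 6.26 ± 0.14 in BDC2.5/NOD (SD, n = 2 each), and fell by 1.93 (SE 0.12, limma adjusted p = 9.19e-07), which is 3.82-fold. It ranked 3 among all probe sets by size of decrease. Hsp90aa1 averaged 6.56 ± 0.16 in BDC2.5/NOD.scid and 7.35 ± 0.08 in BDC2.5/NOD, and fell by 0.79 (SE 0.13, limma adjusted p = 0.00217), which is 1.73-fold.

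The other 5 genes fell by less. Hspa8 fell by 0.65 (limma adjusted p = 0.00701) and Hspd1 by 0.64 (adjusted p = 0.00529). Hspa4 fell by 0.52 at its brightest probe set (adjusted p = 0.0136), Hspe1 by 0.49 (adjusted p = 0.0108) and Dnaja1 by 0.41 (adjusted p = 0.0380). For all 7 of these genes both arrays of BDC2.5/NOD.scid lay below both of BDC2.5/NOD. The same held for Hspa9 and for the probe sets 92571_at, 161140_r_at and 161869_i_at, which were not called. How many of all probe sets separated in this way was not counted. Hspa9 differed by -0.30 (95% interval -0.58 to -0.01, limma adjusted p = 0.222). The other 4 Hspa4 probe sets differed by values between -0.18 and 0.08, and those of Hspd1 (161140_r_at) and Hsp90aa1 (161869_i_at) differed by -0.06 and -0.23.

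Of the 14 member probe sets, 7 fell and 0 rose in BDC2.5/NOD.scid against BDC2.5/NOD, where 5.35% of all probe sets were lower and 2.99% higher. By genes, these shares were 6.08% lower and 3.16% higher. At an unadjusted p under 0.05, 8 of the 14 passed in either direction, and the median difference was -0.35 over the members and -0.01 over all probe sets. The count of 7 changed with the arrays used. It was 2 without BDC2.5/NOD replicate 2, or with both BDC2.5/NOD arrays averaged to 1 sample, and 4 without BDC2.5/NOD replicate 1 or without BDC2.5/NOD.scid replicate 2. Hsph1 and Hsp90aa1 passed under each of the 19 alternatives tried, with limma adjusted p up to 0.000101 and 0.0481. Within the low-actin arrays, with 1 of BDC2.5/NOD.scid and 2 of BDC2.5/NOD, the same 7 genes differed by -1.84 (Hsph1) to -0.39 (Hspe1).

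Macrophage markers were high in the same group. Of 11 markers 7 rose in BDC2.5/NOD.scid, with a summed linear signal of 822 and 912 there, against 450 and 454 in BDC2.5/NOD. Ctss, a lysosomal protease, rose by 2.72. Of 7 acinar markers 2 fell, of 10 islet markers 1 fell, of 5 erythroid markers 2 rose, and 1 marker rose in each of the duct, neutrophil and fibroblast lists. Of 10 immediate early genes 2 rose. Summed acinar signal was 47060 and 47650 in BDC2.5/NOD.scid, against 48370 and 50430 in BDC2.5/NOD. The part of these shifts in the lower heat shock signal was not tested.

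Without the transgene, scid went with a lower level of the mitochondrial Hsp70. Hspa9 averaged 5.36 ± 0.27 in NOD.scid and 6.32 ± 0.02 in NOD (SD, n = 2 each), and fell by 0.97 (SE 0.13, limma adjusted p = 0.00225), which is 1.95-fold and ranked 17 among all probe sets by size of decrease. The dim Hspa4 probe set 92571_at also fell, by 0.64 (SE 0.10, limma adjusted p = 0.00711), while the brightest Hspa4 probe set differed by -0.23 (95% interval -0.47 to 0.02) and did not pass. The other 3 Hspa4 probe sets differed by -0.04 to 0.02.

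Of the 14 member probe sets, 2 fell and 0 rose in NOD.scid, where 1.61% of all probe sets were lower and 0.741% higher. By genes, these shares were 1.9% lower and 0.824% higher. At an unadjusted p under 0.05, 5 of the 14 passed in either direction, and the median difference was -0.19 over the members and 0.03 over all probe sets. Hspd1 differed by -0.40 (95% interval -0.66 to -0.15, limma adjusted p = 0.116), Hspa8 by -0.38 (-0.65 to -0.10, adjusted p = 0.177) and Hsph1 by -0.34 (-0.60 to -0.08, adjusted p = 0.197). Hsp90aa1, Hspe1 and Dnaja1 differed by -0.22, -0.16 and -0.03, and none of these 6 passed. Hspa9 passed under each of the 19 alternatives tried, with limma adjusted p up to 0.0272, and differed by -1.15 within the low-actin arrays and -0.78 within the others, at 1 array of each group. The dim Hspa4 probe set missed the threshold without NOD.scid replicate 2 or NOD replicate 1 (adjusted p up to 0.0704).

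Blood cell markers moved in this comparison. Of 8 neutrophil markers 6 rose, with a summed linear signal of 454 and 476 in NOD.scid, against 204 and 222 in NOD. Of 5 erythroid markers 4 rose, with sums of 4596 and 4822 in NOD.scid, against 2155 and 2432 in NOD. The duct list had 1 call, Car2, which rose by 2.63. The acinar, islet, macrophage, fibroblast and immediate early lists had 0 limma calls, with 1, 4, 2, 2 and 0 genes at an unadjusted p under 0.05. The part of these shifts in the Hspa9 value was not tested.

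With the transgene on the NOD.scid background, 1 member moved past the threshold. Hspe1, the chaperonin lid, averaged 6.46 ± 0.14 in BDC2.5/NOD.scid and 6.96 ± 0.07 in NOD.scid (SD, n = 2 each), and fell by 0.50 (SE 0.10, limma adjusted p = 0.0113), which is 1.41-fold. Its partner Hspd1 differed by -0.04 (95% interval -0.29 to 0.22). Hsph1 differed by -0.06 (-0.32 to 0.20). Both Hsp70 genes read higher on both BDC2.5/NOD.scid arrays than on both NOD.scid arrays without passing. Here too the share of all probe sets so separated was not counted. Hspa8 differed by 0.45 (0.18 to 0.72, limma adjusted p = 0.0544) and Hspa9 by 0.46 (0.17 to 0.74, adjusted p = 0.0672).

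Of the 14 member probe sets, 1 fell and 0 rose in BDC2.5/NOD.scid against NOD.scid, where 4.03% of all probe sets were lower and 2.37% higher. By genes, these shares were 4.51% lower and 2.46% higher. The count of 1 is near the share of all probe sets. At an unadjusted p under 0.05, 5 of the 14 passed in either direction, and the median difference was 0.009 over the members and -0.004 over all probe sets. Hspe1 missed the threshold when BDC2.5/NOD.scid replicate 2 was left out (difference -0.40, limma adjusted p = 0.103) or NOD.scid replicate 1 was (-0.45, adjusted p = 0.0759). Hspa8 passed under 7 of the 19 alternatives, among them quantile normalization (0.52, adjusted p = 0.0272). Of 11 macrophage markers 7 rose here (summed signal 822 and 912 in BDC2.5/NOD.scid, against 439 and 479 in NOD.scid), and 3 of 10 immediate early genes rose. Of 10 islet markers 5 fell, as did 5 of 8 neutrophil, 4 of 5 erythroid, 5 of 6 fibroblast and 1 of 7 duct markers, while the acinar list had 0 limma calls (2 genes at an unadjusted p under 0.05). The part of these shifts in the Hspe1 value was not tested.

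The difference between both transgene effects was tested as an interaction, the effect on NOD.scid minus that on NOD. Hsph1 was the 1 member called, at -1.59 (SE 0.17, limma adjusted p = 0.000164), since the transgene effect was -0.06 on NOD.scid and 1.52 on NOD. It passed under each of 18 alternatives (adjusted p up to 0.00302). By limma's adjusted p, 2.5% of all probe sets had a lower and 2.22% a higher effect on NOD.scid, and by genes 2.9% and 2.48%. At an unadjusted p under 0.05, 6 of the 14 member probe sets passed, and the share of all probe sets at that p was not counted. Hspa9 differed the other way, at 0.67 (95% interval 0.26 to 1.08, limma adjusted p = 0.0676), with 0.46 on NOD.scid and -0.21 on NOD. Hsp90aa1 differed by -0.57 (-0.97 to -0.18, adjusted p = 0.108) and Hspa8 by -0.27 (-0.66 to 0.11, adjusted p = 0.494). The 5 comparisons share arrays, so their values are not independent of each other.

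**Figure D2:**
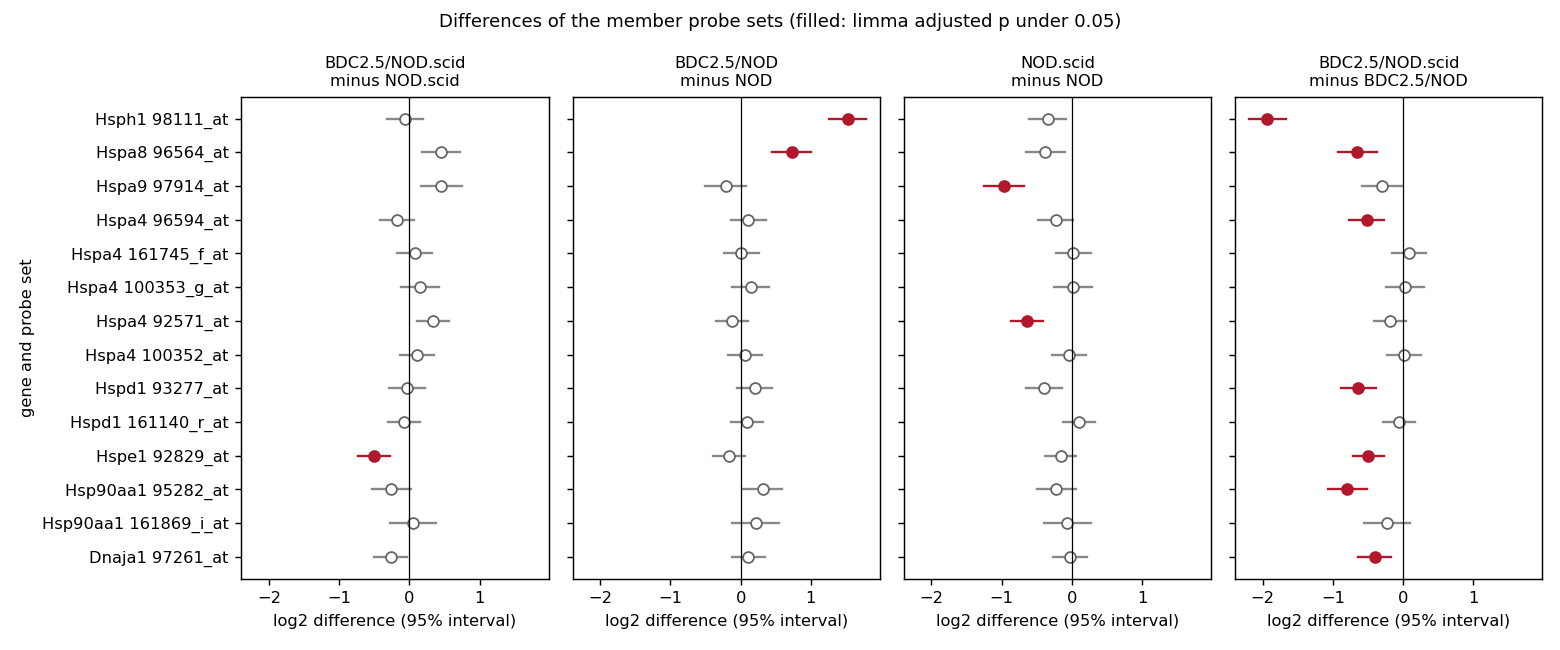
The log2 difference of each of the 14 probe sets (horizontal axes) is plotted with its 95% interval for the 4 pairs of groups, and filled points have a limma adjusted p under 0.05. Hsph1 lies at 1.52 in BDC2.5/NOD minus NOD and at -1.93 in BDC2.5/NOD.scid minus BDC2.5/NOD, where 7 points are filled.

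Other genes of the chaperone network were counted from lists chosen by name, at 1 probe set a gene. Of the other Hsp70 and Hsp110 genes, 6 of 9 were measured and limma called 0 in each of the 5 comparisons, with 0 to 2 at an unadjusted p under 0.05. Hspa1b, Hspa1l, Hspa2 and Hspa14 read below the median of all probe sets (4.27) on every array, and Hspa1a and Hspa4l lay near it. The lack of calls at such dim probe sets does not show that these genes were unchanged. Hspa1a, a stress-inducible Hsp70 chosen for mention after its values were seen, read 4.50 and 4.38 in BDC2.5/NOD, against 4.14 and 4.08 in NOD, a difference of 0.33 (limma adjusted p = 0.0947). Its near-identical copy Hspa1b may share signal with it and differed by 0.21 (adjusted p = 0.415). Heat shock factors and their regulators, with 6 of 7 measured, also had 0 limma calls in all 5 comparisons, with 0 to 2 at an unadjusted p under 0.05. Among them Hsf2 and Hsf4, named after their values were seen, differed by 0.06 and 0.27 between BDC2.5/NOD and NOD. Both were dim as well, below that median on every array.

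Partners of Hsp70 and Hsp90 were called in some comparisons. Of 17 measured co-chaperones (22 listed), 1 rose and 1 fell in BDC2.5/NOD against NOD. These counts are near the shares of all genes, 4.16% higher and 4.56% lower. Bag3, a co-chaperone that links Hsp70 to autophagy, rose by 0.89 (SE 0.10, limma adjusted p = 0.000297), and Tomm70a, the import receptor that takes clients from Hsp90, fell by 0.54. With scid added to the transgene, in BDC2.5/NOD.scid against BDC2.5/NOD, 6 fell and 1 rose, with a median of -0.24 beside -0.02 over all genes. There 6.08% of all genes were lower and 3.16% higher. Bag3 fell by 0.68, Chordc1, an Hsp90 binding protein, by 0.58, and Fkbp4, an immunophilin of steroid receptor complexes, by 0.50, while Fkbp5, the counterpart of Fkbp4, rose by 0.85. Between BDC2.5/NOD.scid and NOD.scid, Fkbp5 rose by 1.31 (limma adjusted p = 4.11e-06), and Fkbp4 and the ubiquitin ligase gene Stub1 fell by 0.67 and 0.43. There 2.46% of all genes were higher and 4.51% lower. In NOD.scid against NOD limma called 0 of the 17, with 6 at an unadjusted p under 0.05. In the interaction Fkbp5 stood at 0.96, Bag3 at -0.73 and Fkbp4 at -0.61, where 2.48% of all genes were higher and 2.9% lower.

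J proteins and small heat shock proteins had few calls. Of 13 measured J proteins (17 listed), 1 rose in BDC2.5/NOD against NOD, Dnajc5, which chaperones at secretory vesicles, by 0.40. In that comparison 4.16% of all genes were higher and 4.56% lower. A further 2 J proteins fell in BDC2.5/NOD.scid against BDC2.5/NOD, namely Dnajb1, the main heat-induced one, by 0.55 and Dnaja3, a mitochondrial one, by 0.35. There 6.08% of all genes were lower and 3.16% higher. Dnajb1 averaged 3.63 in BDC2.5/NOD.scid, 4.18 in BDC2.5/NOD, 4.03 in NOD.scid and 3.85 in NOD. These means all lie below the median of all probe sets (4.27). Its interaction was -0.74, where 2.9% of all genes were lower. The other 2 pairs of groups had 0 J protein calls from limma, with 1 gene each at an unadjusted p under 0.05. Of 5 measured small heat shock proteins (8 listed), Hspb8, a partner of Bag3, rose by 0.43 in BDC2.5/NOD against NOD, and limma called 0 in the other 4 comparisons, with 0 at an unadjusted p under 0.05.

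Chaperones of the endoplasmic reticulum were called in larger numbers. In BDC2.5/NOD against NOD 11 of 15 measured genes (17 listed) rose and 0 fell, with a median of 0.82 beside 0.04 over all genes. There 4.16% of all genes were higher and 4.56% lower. Creld2 rose by 2.08, the disulfide isomerase Pdia4 by 1.82, Hspa5 (BiP, the Hsp70 of this compartment) by 1.53 and Hsp90b1, its Hsp90, by 1.06. Of the 15 genes, 10 fell in BDC2.5/NOD.scid against BDC2.5/NOD, with a median of -0.89, where 6.08% of all genes were lower. In BDC2.5/NOD.scid against NOD.scid 3 rose, Hspa5 by 0.81, Creld2 by 0.56 and Hsp90b1 by 0.55. In NOD.scid against NOD Hsp90b1 and Hspa5 fell by 0.83 and 0.59. Over all genes 2.46% were higher in the former comparison and 1.9% lower in the latter. The interaction had 8 lower, with Pdia4 at -1.82, where 2.9% of all genes were lower. No test compared these lists with each other.

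**Figure D3:**
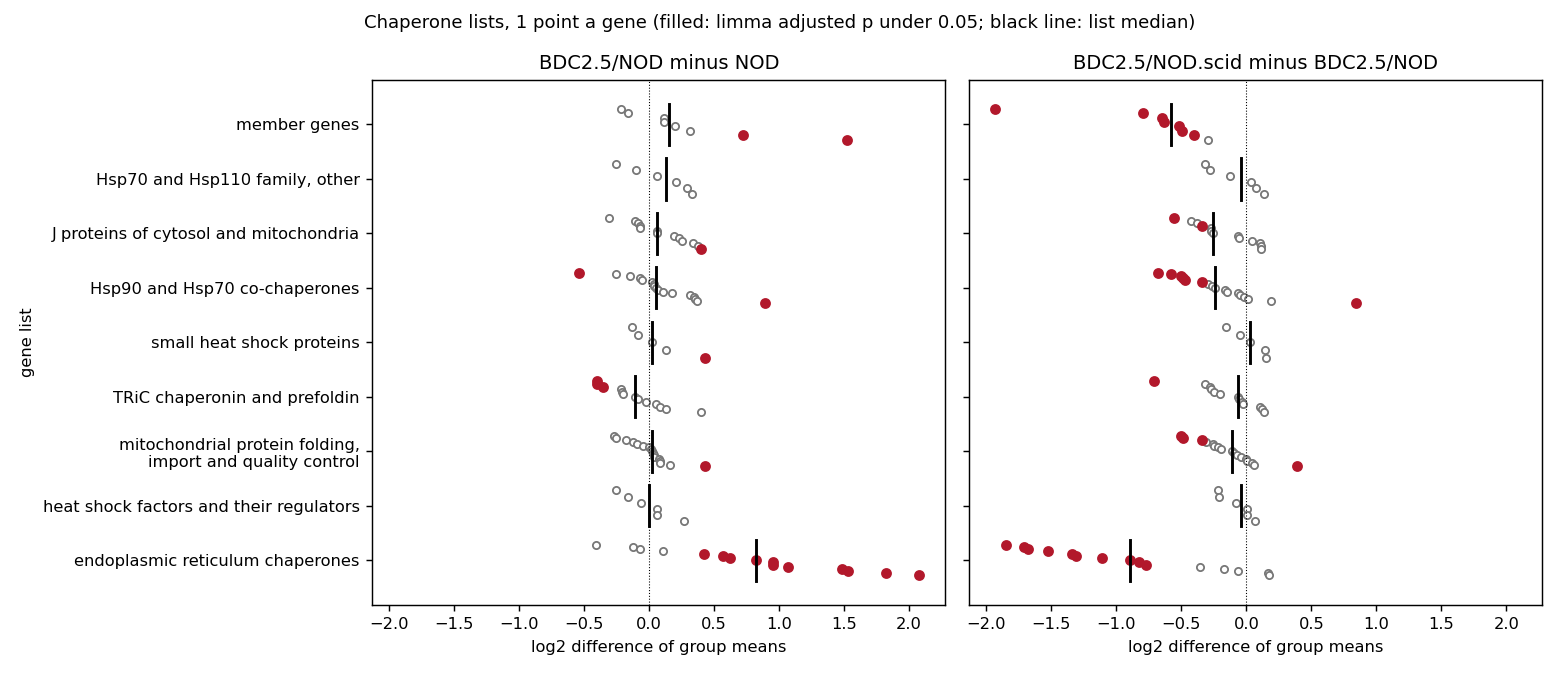
Each point is the log2 difference of 1 gene (horizontal axis) by list (rows) in BDC2.5/NOD minus NOD (left) and BDC2.5/NOD.scid minus BDC2.5/NOD (right), with filled points at a limma adjusted p under 0.05 and a black line at the list median. In the right panel 7 of the 8 member genes are filled below 0, and in the left panel 11 endoplasmic reticulum genes are filled above 0.

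The genes most alike in pattern were found for the 3 members with the widest group means, as the highest Pearson r over the 8 arrays among 1121 genes whose group means span at least 0.5 log2 units. For Hsph1 these were Trp53inp2 (r = 0.998), Slc23a3 (0.976), Manf, Mogs and Tmem50b (0.974 each). All 5 were highest in BDC2.5/NOD, which follows from picking them by likeness to Hsph1. Trp53inp2 averaged 5.16 in BDC2.5/NOD.scid, 6.06 in BDC2.5/NOD, 5.18 in NOD.scid and 5.30 in NOD. For Hspa8 they were Hspa5 (0.975), Mrap (0.971), Ggh (0.963), Ptger3 (0.962) and Nudt4 (0.960). For Hspa9 they were Ipo7 (0.951), Cct4 (0.942), Aifm1 (0.935), Cfdp1 (0.934) and Cct5 (0.923). All 5 were lowest in NOD.scid, which again follows from how they were picked. The points share arrays and their controls, and these values are descriptions with no test.

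**Figure D4:**
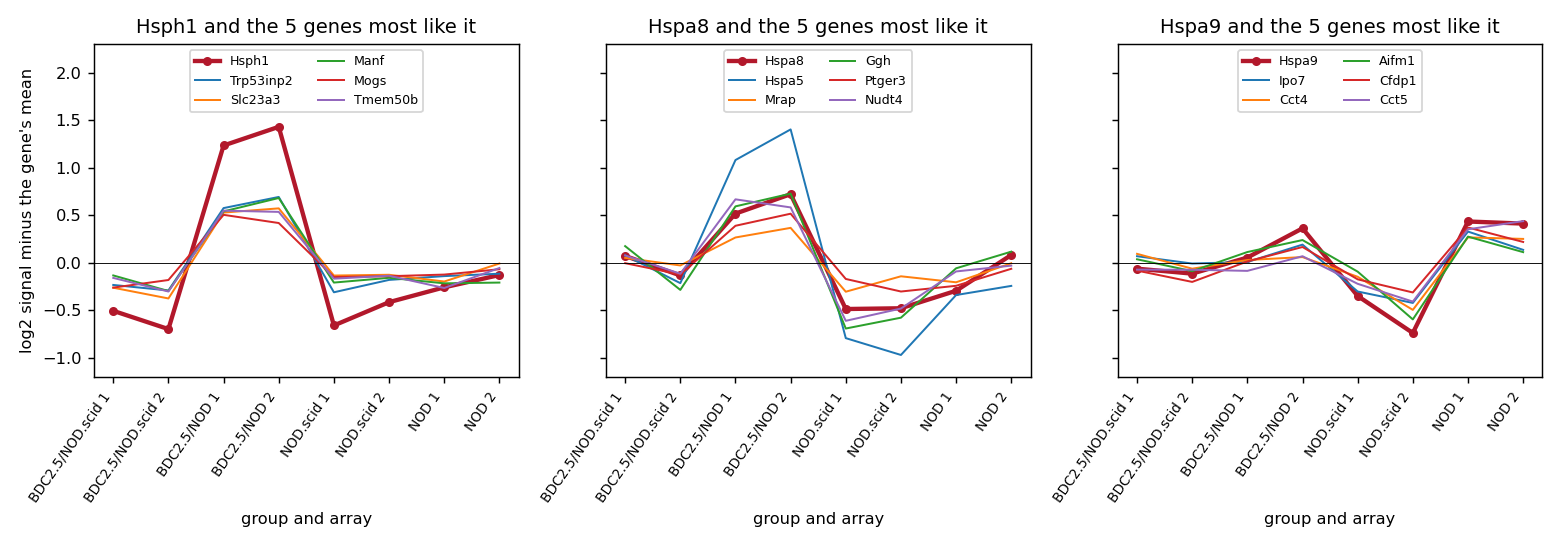
The log2 signal minus each gene's mean over the 8 arrays (vertical axis) is plotted by array for Hsph1, Hspa8 and Hspa9 (thick red lines with points) and the 5 genes most like each (thin lines). Hsph1 and its likest genes peak on both BDC2.5/NOD arrays, and Hspa9 and its likest genes have their lowest group mean in NOD.scid. The shared shape follows from picking the genes by likeness.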

How the data were processed

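The deposited table holds 12488 probe sets per array. Its values are taken as log2, since they reach at most 13.78. Per the labels, RNA was extracted with guanidine isothiocyanate, and targets were made by Affymetrix procedures from some 10 ug of it. How the authors corrected background, normalized and summarised probes is not stated in the labels or the file. Array medians were 4.24 to 4.30, and the deposited log2 values were not rescaled. After 66 array controls were left out, 12422 probe sets were fitted by group means in limma 3.58.1 (R 4.3.3), with all 8 arrays and a variance trend. Tests were two-sided and Benjamini-Hochberg adjusted over all probe sets within a comparison, with a threshold of 0.05. Residual degrees of freedom were 4, with 8.07 from the prior, and the small number of arrays limits precision.

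Platform annotation gave 1 symbol for 10833 probe sets, several for 396 and none for 1193. Gene identifiers of 10817 matched the GRCm38.p6 annotation, which was used for names and for promoter windows. A gene outside the members is represented by its brightest probe set. All member probe sets are reported. From each list up to 4 genes with the smallest p past the threshold are named per comparison, with a few always reported. Members, lists and tests were chosen with earlier results of these data known. Title numbers did not pair arrays (correlation of deviations -0.322 to 0.287 over the pairs of groups). The test was checked on simulated data with independent normal noise on each array. That check cannot show how the test behaves if both arrays of a group share an RNA pool. Alternatives covered scaling, the variance prior, leaving out dim probe sets, which arrays entered the fit, a replicate block, array weights, a stricter threshold and leaving out each array. Those chosen after seeing the data are the actin control as a term, the BDC2.5/NOD arrays averaged to 1 sample, and values within arrays of low or high actin control. Tables were made with pandas 2.3.3 and figures with matplotlib 3.10.9.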

Additional observations from a re-analysis of the deposited data

Results flagged for a closer look

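The transgene effect on Hsph1 differed between the backgrounds. It was -0.06 on NOD.scid and 1.52 on NOD, and the test of the difference gave -1.59 (SE 0.17, limma adjusted p = 0.000164). Both BDC2.5/NOD arrays lay above both NOD arrays, while the BDC2.5/NOD.scid arrays overlapped the NOD.scid arrays. The BDC2.5/NOD pair on which this value rests also read higher in the BioB control, and the part of that in the value was not tested.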

How the results depend on the processing

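Counts of member probe sets called rest on small numbers. In BDC2.5/NOD.scid against NOD.scid the count was 1, and it was 3 under quantile normalization or with the actin control as a term, 2 with array medians set equal, dim probe sets left out or a robust variance prior, 0 at a threshold of 0.01, and 0 to 2 with 1 array left out. In BDC2.5/NOD against NOD it was 2, with 3 when only those groups were fitted and 1 to 2 with 1 array left out. In NOD.scid against NOD it was 2, with 1 when dim probe sets were left out or only brightest probe sets were counted, 4 with the actin term and 1 to 2 with 1 array left out. In BDC2.5/NOD.scid against BDC2.5/NOD it was 7, with 4 at a threshold of 0.01, 2 with the BDC2.5/NOD arrays averaged and 2 to 7 with 1 array left out. The interaction had 1, with 2 under quantile normalization, 3 with the actin term and 1 to 2 with 1 array left out. The replicate block gave 1, 2, 2, 7 and 1 in these 5 comparisons, the same as without it. Among single probe sets, 1198 values under an alternative kept direction and side of the threshold, 28 lost the call and 18 gained it. A further 47 changed sign, in 23 differences of member probe sets, and 0 of these 47 were called with or without the alternative (limma adjusted p of at least 0.648 under it). Of them 37 came with 1 array left out, and the log2 differences are given here with their range over those settings. In BDC2.5/NOD.scid against NOD.scid these were Hsph1 (98111_at) at -0.065 (-0.19 to 0.058), Hspa4 (161745_f_at) at 0.076 (-0.055 to 0.21), Hspd1 (93277_at) at -0.035 (-0.20 to 0.13), Hspd1 (161140_r_at) at -0.073 (-0.16 to 0.013) and Hsp90aa1 (161869_i_at) at 0.053 (-0.014 to 0.12). In BDC2.5/NOD against NOD these were Hspa4 (161745_f_at) at 0.013 (-0.059 to 0.085), Hspa4 (100352_at) at 0.061 (-0.03 to 0.15), Hspd1 (161140_r_at) at 0.093 (-0.016 to 0.20) and Hsp90aa1 (161869_i_at) at 0.22 (-0.031 to 0.46). In NOD.scid against NOD these were Hspa4 (161745_f_at) at 0.019 (-0.11 to 0.15), Hspa4 (100353_g_at) at 0.017 (-0.11 to 0.15), Hspa4 (100352_at) at -0.04 (-0.13 to 0.049), Hspd1 (161140_r_at) at 0.11 (-0.002 to 0.22), Hsp90aa1 (161869_i_at) at -0.066 (-0.31 to 0.18) and Dnaja1 (97261_at) at -0.027 (-0.13 to 0.081). In BDC2.5/NOD.scid against BDC2.5/NOD these were Hspa4 (100353_g_at) at 0.026 (-0.12 to 0.17) and Hspa4 (100352_at) at 0.01 (-0.082 to 0.10). In the interaction these were Hspa4 (161745_f_at) at 0.064 (-0.068 to 0.20), Hspa4 (100353_g_at) at 0.009 (-0.14 to 0.15), Hspa4 (100352_at) at 0.05 (-0.042 to 0.14) and Hsp90aa1 (161869_i_at) at -0.16 (-0.41 to 0.084). Under quantile normalization, Hspd1 (93277_at) was 0.0089 in BDC2.5/NOD.scid against NOD.scid, Hspa4 (161745_f_at) was -0.025 in BDC2.5/NOD against NOD, Hspa4 (161745_f_at) was -0.0011 in NOD.scid against NOD, Hspa4 (100353_g_at) was -0.0103 in NOD.scid against NOD and Hspa4 (100352_at) was -0.0038 in BDC2.5/NOD.scid against BDC2.5/NOD. With array medians set equal, Hspa4 (161745_f_at) was -0.016 in BDC2.5/NOD against NOD. With the actin term, Hspa4 (100352_at) was -0.061 in BDC2.5/NOD against NOD, Hspa4 (161745_f_at) was -0.035 in BDC2.5/NOD.scid against BDC2.5/NOD, Hspd1 (161140_r_at) was 0.024 in BDC2.5/NOD.scid against BDC2.5/NOD and Hspa4 (161745_f_at) was -0.038 in the interaction. Dnaja1 in BDC2.5/NOD.scid against BDC2.5/NOD passed in 12 of 19 alternatives. Over all probe sets, calls in the same order of comparisons numbered 795 (432 to 1321), 990 (278 to 1568), 292 (71 to 781), 1037 (311 to 1363) and 586 (195 to 994). In BDC2.5/NOD against NOD 49.1% of calls were higher, and 38.9% with array medians set equal. The causes were not tested, beyond fewer arrays where some were left out or averaged.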

Other observations

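Chaperone groups further from the members had scattered calls. Of the cytosolic TRiC chaperonin and its partner prefoldin, 13 genes were measured (14 listed). Of them 3 fell in BDC2.5/NOD against NOD, namely Cct5 by 0.40, Vbp1 by 0.40 and Cct6a by 0.36. There 4.56% of all genes were lower. In NOD.scid against NOD 2 fell, Cct5 by 0.71 (SE 0.10, limma adjusted p = 0.00208) and Cct4 by 0.58 (adjusted p = 0.0211). In this comparison Hspa9 fell too, and 1.9% of all genes were lower. Vbp1 fell by 0.41 in BDC2.5/NOD.scid against NOD.scid, Cct3 fell by 0.71 in BDC2.5/NOD.scid against BDC2.5/NOD, and Cct5 stood at 0.65 in the interaction. In the same order, 4.51% and 6.08% of all genes were lower and 2.48% higher.

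Of 17 measured genes of mitochondrial protein folding, import and quality control (22 listed), the import channel gene Timm23 rose by 0.43 in BDC2.5/NOD against NOD. In that comparison 4.16% of all genes were higher and 4.56% lower. Of the 17 genes, 3 fell in BDC2.5/NOD.scid against BDC2.5/NOD, Timm17a by 0.50, Timm23 by 0.49 and the protease gene Clpp by 0.34. The protease gene Htra2 rose by 0.39 there, where 6.08% of all genes were lower and 3.16% higher. Clpp and the prohibitin gene Phb2 fell by 0.48 and 0.49 in BDC2.5/NOD.scid against NOD.scid. Grpel2, an exchange factor of Hspa9, fell by 0.43 in NOD.scid against NOD. Over all genes 4.51% were lower in the former comparison and 1.9% in the latter. Clpp stood at -0.50 in the interaction, where 2.9% of all genes were lower. List medians lay between -0.20 and 0.11 in all comparisons of both lists, beside -0.04 to 0.04 over all genes.

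Reg3g, a secreted lectin of stressed acinar cells, read 10.03 and 9.65 in BDC2.5/NOD.scid and 10.27 and 10.35 in BDC2.5/NOD, against 5.18 and 5.02 in NOD.scid and 4.87 and 4.99 in NOD. Both groups with the transgene were high.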
